A study of Bos taurus with 48 samples.

Results

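The glucose and amino acid transporters of the solute carrier (SLC) families were measured in endometrium taken on cycle day 17 from cyclic and pregnant dairy cows. Members were all array probes whose gene symbol, or the symbol in the last brackets of the probe description, belonged to the families SLC1, SLC2, SLC3, SLC5, SLC6, SLC7, SLC15, SLC16, SLC36, SLC38 or SLC43, whatever their measured values. There were 88 such probes for 84 genes among 21475 gene probes, and 55 of them, for 54 genes, were bright enough to be among the 14695 probes tested. The families were chosen by symbol, so they also hold carriers of other substrates, such as the creatine carrier SLC6A8 and the serotonin carrier SLC6A4.

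The study sampled caruncular endometrium, the gland-free nodes where the placenta will attach, and the glandular intercaruncular endometrium between them from each of 22 lactating Holstein-Friesian cows, which gave 44 RNA samples. The oestrous cycles of all 22 cows had been synchronised. The 12 pregnant cows had each received a grade 1 blastocyst on day 7, and the 10 cyclic cows had received none, so that pregnancy and embryo transfer cannot be told apart. All cows were slaughtered on day 17, when pregnancy would be recognised. Among the pregnant cows, 7 carried an embryo labelled large (over 20 cm and over 75 mg) and 5 carried an embryo labelled small (under 20 cm and under 40 mg), and 6 were labelled fertile and 6 sub-fertile. Of the fertile cows, 3 carried a large embryo and 3 a small embryo. Cow ages were not given in the sources used here.

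Before attachment the bovine conceptus lives on histotroph, the fluid that the uterine epithelium secretes and transports into the lumen. Glucose crosses cell membranes by facilitative carriers of the SLC2 family and, against a gradient, by sodium-coupled carriers of the SLC5 family. Amino acids are moved by sodium-coupled carriers (SLC1, SLC6, SLC38), by proton-coupled carriers (SLC36) and by exchangers built of an SLC7 light chain and an SLC3 heavy chain, whereas SLC15 proteins carry small peptides and histidine, and SLC16 proteins carry lactate, pyruvate and other monocarboxylates.

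The sequences of 5 array probes are shown because the results turn on them: the glucose carriers SLC2A1 and SLC5A1, the cystine and basic amino acid light chain SLC7A9, the taurine carrier SLC6A6 and the lysosomal carrier SLC15A3. They were taken from the probe list that accompanied the study, which held a sequence for 23 of the 88 probes. Each is written as listed, in lower case throughout, since no part of a probe was singled out.
SLC2A1: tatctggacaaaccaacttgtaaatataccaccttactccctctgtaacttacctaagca
SLC5A1: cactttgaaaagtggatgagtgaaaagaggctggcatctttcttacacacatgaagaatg
SLC7A9: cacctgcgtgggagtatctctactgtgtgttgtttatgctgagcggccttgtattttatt
SLC6A6: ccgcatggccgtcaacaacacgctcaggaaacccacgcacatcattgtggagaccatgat
SLC15A3: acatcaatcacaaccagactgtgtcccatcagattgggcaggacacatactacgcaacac
The GC content of these probes ran from 38.3% for SLC2A1 to 55.0% for SLC6A6.

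RNA of a sample carried Cy5 and was hybridised beside a Cy3-labelled pool of all the endometrial samples. A value of a sample is the log2 ratio of the sample to that pool, so values can be compared between samples of a gene but not between genes. With no dye swap, a dye bias of a probe is shared by every sample. A difference is the log2 difference between group means, with its standard error (SE) from limma, a linear model fitted over all tested probes, and a p adjusted by Benjamini-Hochberg over those probes. Between pregnant and cyclic cows and between tissues a gene was called changed at an adjusted p under 0.05 and a change of at least 1.5-fold. Between embryo sizes and fertility labels the adjusted p alone was used. The replicate was the cow, and 4 caruncular samples were hybridised to a second array and averaged, the SD between their arrays over the tested members being 0.09 to 0.14.

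Between 68.8% and 84.0% of the spots on an array were well above background. Of 7 endometrial marker genes on the array 6 passed the brightness filter, and of 11 markers of conceptus trophoblast only PAG1 did, being detected in all 44 samples, cyclic ones included. The 44 samples of whole tissue hold many cell types, so fewer cells of a type and less RNA per cell cannot be told apart. Cows are named as in the labels, by state and number. Libraries of 2 cows stood apart over the tested probes of the whole array that had a value in every sample. The intercaruncular library of cow Pregnant_9790 had a correlation of -0.04 with the mean of its own group and of 0.44 with that of caruncular pregnant cows, and the caruncular library of cow Non-Pregnant_9786 had 0.37 with its own group and 0.48 with intercaruncular cyclic cows. The SD of the latter from its group mean was 0.81, and among the 40 libraries of the other cows it was 0.32 to 0.49. The correlations of these 40 libraries with their own groups ran from 0.38 to 0.85, so 0.37 lay only just below them. Another group fitted 5 of the 40 best, among them the caruncular library of cow Pregnant_3807 (0.51 with its own group, 0.54 with caruncular cyclic cows). Intercaruncular arrays were scanned on the first of 3 days and caruncular arrays on the second, except on 2 slides of the third day that held both tissues, and on these only cows Non-Pregnant_9786 and Pregnant_9790 gave both of their tissues. Of the 12 slides, only slide 7 (caruncular) and slide 2 (intercaruncular), with 3 pregnant cows and 1 cyclic cow each, held both states of 1 tissue among the samples of the first and second day. Both slides held the same cows: Pregnant_3807, Pregnant_9921 and Pregnant_3803, all sub-fertile, and Non-Pregnant_3972.

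In caruncular endometrium 6 transporter genes were higher and 8 lower in pregnant than in cyclic cows. In intercaruncular endometrium 4 were higher and 7 lower. The genes called higher in both tissues were SLC15A3, SLC2A1 and SLC6A6, and those called lower in both included SLC2A3, SLC38A3 and SLC7A5. As a share of the 54 tested genes 25.9% were called in caruncular tissue, where 9.98% of all probes tested were called (5.77% higher, 4.21% lower). In intercaruncular tissue 20.4% of the genes were called, against 7.24% of all probes (3.99% higher, 3.25% lower). The median change over the 54 genes was -0.10 in caruncular and -0.08 in intercaruncular tissue, and it was -0.043 and -0.015 over all probes tested. An unadjusted p under 0.05 was reached by 33 of the 54 genes (61.1%) in the former and by 18 (33.3%) in the latter, where 39.1% and 34.1% of all probes reached it.

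**Figure D1:**
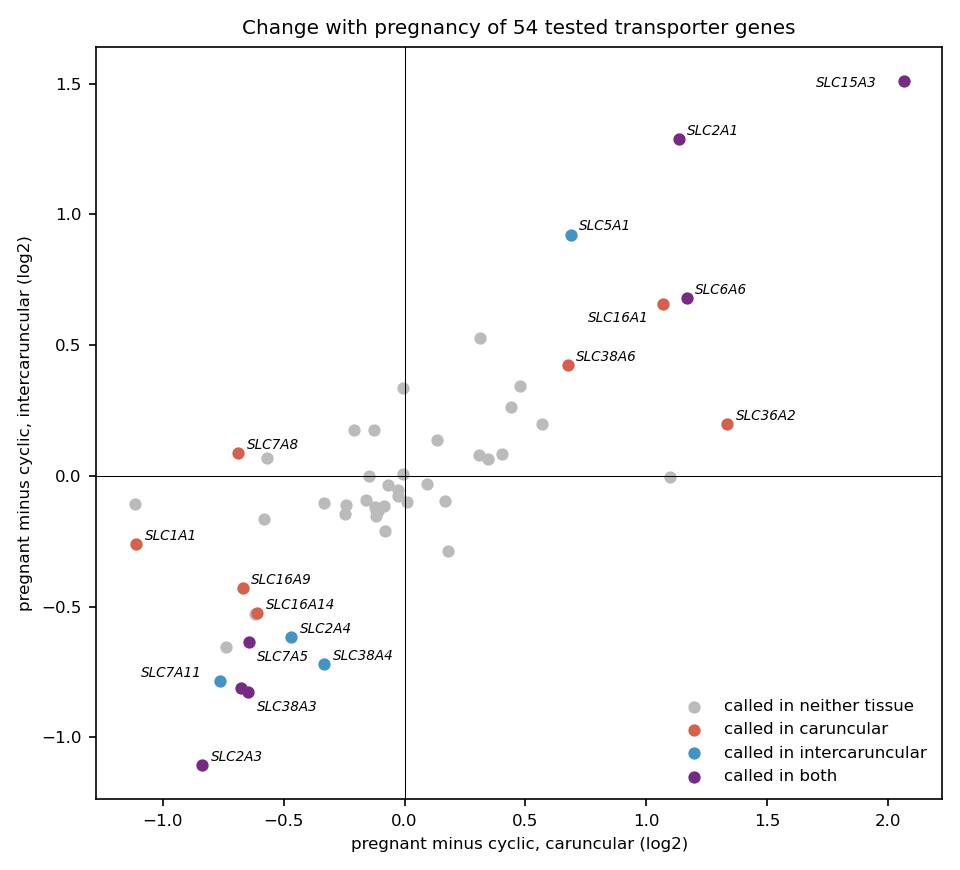
Change with pregnancy of the 54 tested transporter genes, as pregnant minus cyclic on the log2 scale in caruncular (horizontal) and intercaruncular (vertical) endometrium; each point is a gene, coloured by the tissue in which it was called. SLC15A3 lies farthest to the upper right, at 2.06 and 1.51, and SLC2A3 lowest, at -0.84 and -1.11.

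Of the 8 facilitative sugar carriers tested, SLC2A1 rose in both tissues, SLC2A3 fell in both and SLC2A4 fell in intercaruncular tissue. SLC2A1, the widespread basal glucose carrier, had in caruncular tissue a lowest, median and highest value of -1.84, -1.27 and -0.43 in cyclic cows and of -1.11, 0.12 and 1.06 in pregnant cows. In intercaruncular tissue the values were -1.76, -1.26 and 0.09 in cyclic cows and -0.84, 0.06 and 1.27 in pregnant cows. The groups overlapped in both tissues, and the cow with the intercaruncular value of 0.09 was above every other cyclic cow. The differences were 1.13 (2.2-fold, SE 0.27, adjusted p = 0.00347, limma) and 1.29 (2.44-fold, SE 0.26, adjusted p = 0.00143, limma). SLC2A3, a high-affinity glucose carrier, ran from -0.33 to 0.75 (median 0.41) in caruncular tissue of cyclic cows and from -1.24 to 0.48 (median -0.67) in pregnant cows. The intercaruncular values ran from -0.04 to 1.24 (median 0.91) and from -0.79 to 0.42 (median -0.40). It was lower by 1.79-fold in caruncular tissue (-0.84, SE 0.18, adjusted p = 0.00181, limma) and by 2.15-fold in intercaruncular tissue (-1.11, SE 0.16, adjusted p = 5.39e-05, limma).

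SLC2A3 was read from its brighter probe, which the array ties to an expressed sequence tag. Its dimmer probe was lower by 0.30 on the log2 scale in both tissues and was not called (adjusted p = 0.611 and 0.515, limma), so that the call rests on the brighter probe. SLC2A4, the insulin-responsive glucose carrier, ran in intercaruncular tissue from -0.02 to 1.00 (median 0.67) in cyclic cows and from -0.59 to 0.41 (median -0.00) in pregnant cows, a difference of -0.62 (1.53-fold, SE 0.13, adjusted p = 0.00213, limma). Its caruncular change was -0.47 (adjusted p = 0.00722, limma), under 1.5-fold. Of the 4 SLC5 genes tested only SLC5A1, the sodium-coupled glucose carrier of absorptive epithelia, was called. In intercaruncular tissue it ran from -1.72 to 0.34 (median -0.94) in cyclic cows and from -0.68 to 0.91 (median 0.12) in pregnant cows, 1.9-fold higher (0.92, SE 0.25, adjusted p = 0.0113, limma). In caruncular tissue the change was 0.69, at an adjusted p of 0.0651 (limma).

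**Figure D2:**
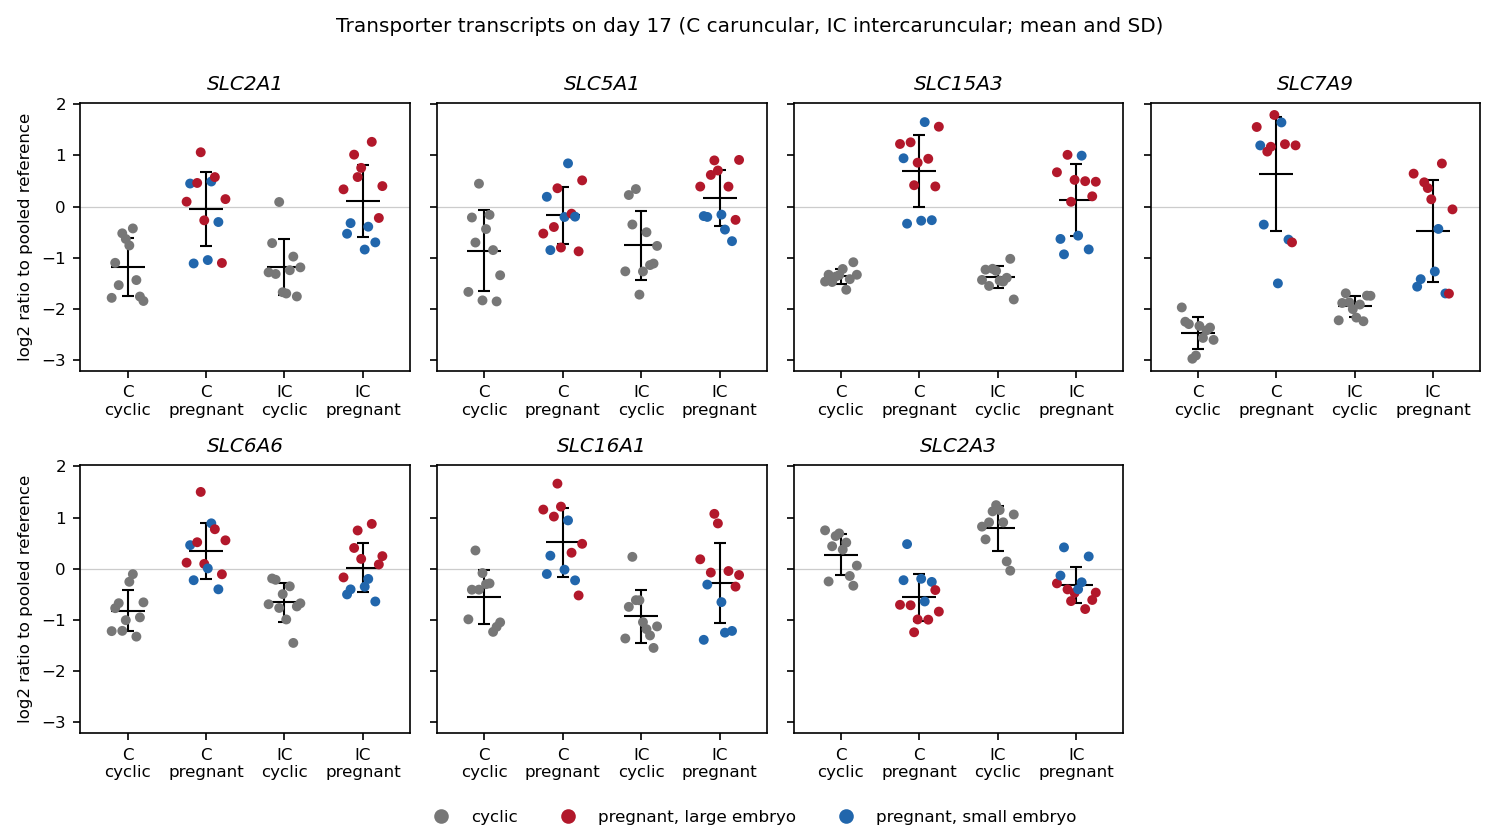
Values of 7 transporters as log2 ratio to the pooled reference (vertical axis) in each sample, by tissue and state; points are samples, lines are means and bars SDs, and pregnant cows are coloured by embryo size. In SLC15A3 every pregnant cow lay above every cyclic cow in both tissues, and in SLC7A9 this held in caruncular tissue, where the highest cyclic value was -1.97 and the lowest pregnant value -1.50.

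The member called highest in pregnancy was SLC15A3, which carries histidine and short peptides across the membrane of lysosomes and endosomes. In caruncular tissue it ran from -1.62 to -1.09 (median -1.35) in cyclic cows and from -0.33 to 1.65 (median 0.90) in pregnant cows, 4.18-fold higher (2.06, SE 0.22, adjusted p = 3.68e-07, limma). Intercaruncular values ran from -1.82 to -1.02 (median -1.41) and from -0.93 to 1.01 (median 0.34), 2.85-fold higher (1.51, SE 0.22, adjusted p = 5.22e-05, limma). It was the only tested gene of these families whose groups were free of overlap in both tissues, where 1.89% of all probes did not overlap in caruncular and 1.15% in intercaruncular tissue. The other SLC15 genes were not called in pregnancy. The intestinal-type peptide carrier SLC15A1 was 1.10 higher in caruncular tissue and the high-affinity peptide carrier SLC15A2 was -1.12 from cyclic cows there, with SEs of 0.42 and 0.55 and adjusted p of 0.0562 and 0.136 (limma). These SLC15 values were added after they had been seen, because of their size. The current reference table gives the SLC15A2 probe another name. A tested probe outside the members, which that table names SLC15A2, differed by -0.55 in caruncular and 0.01 in intercaruncular tissue (adjusted p = 0.327 and 0.987, limma).

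Among sodium- and chloride-coupled carriers (SLC6, 8 tested), only SLC6A6 was called. It takes up taurine and beta-alanine. In caruncular tissue it ran from -1.33 to -0.11 (median -0.86) in cyclic cows and from -0.40 to 1.502 (median 0.29) in pregnant cows, 2.25-fold higher (1.17, SE 0.20, adjusted p = 0.0002, limma). The intercaruncular range was from -1.45 to -0.19 (median -0.69) and from -0.64 to 0.88 (median -0.04), 1.6-fold higher (0.68, SE 0.18, adjusted p = 0.0107, limma). Its probe was dim and passed the brightness filter in 23 of the 44 samples, 22 being required. Its median signal was 51.7 and 57.1 in caruncular and intercaruncular tissue of cyclic cows, under the filter's 80, and 110.1 and 107 in pregnant cows, so it was tested through the state in which it was brighter. It was well above background in every pregnant sample but in 6 of 10 caruncular and 9 of 10 intercaruncular samples of cyclic cows, and with normexp background correction the intercaruncular change was 0.37 and no longer reached 1.5-fold.

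Of the other amino acid carriers most called changes were falls. SLC1A1, which takes up glutamate and aspartate, ran in caruncular tissue from -1.12 to 0.24 (median -0.26) in cyclic cows and from -2.36 to 0.53 (median -1.58) in pregnant cows. That was 2.16-fold lower (-1.11, SE 0.29, adjusted p = 0.00741, limma), and the highest pregnant cow was above every cyclic cow. In intercaruncular tissue its change was -0.26, at an adjusted p of 0.522 (limma). None of the other 3 SLC1 genes tested was called in either tissue.

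The 7 tested SLC7 genes and the 2 SLC3 heavy chains gave calls for light chains only, and all of them were falls. SLC7A5, the light chain for leucine and other large neutral amino acids, was lower by 1.56-fold in caruncular tissue (-0.64, SE 0.18, adjusted p = 0.0096, limma), where pregnant cows ran from -0.96 to 0.45 (median -0.13) and cyclic cows from -0.34 to 1.19 (median 0.49). Its intercaruncular fall of 1.55-fold (-0.64, SE 0.22, adjusted p = 0.0455, limma) was near the threshold. SLC7A8, a second large neutral amino acid light chain, was 1.61-fold lower in caruncular tissue (-0.69, SE 0.22, adjusted p = 0.0234, limma), medians being -1.51 (pregnant) and -0.56 (cyclic), and in intercaruncular tissue its change was 0.09 (adjusted p = 0.841, limma). SLC7A11, the light chain of the cystine and glutamate exchanger, was 1.72-fold lower in intercaruncular tissue (-0.79, SE 0.24, adjusted p = 0.0231, limma). Pregnant cows ran there from -0.79 to 0.88 and cyclic cows from -0.22 to 1.65. The heavy chain SLC3A2, partner of these 3 light chains, changed by 0.35 in caruncular tissue (adjusted p = 0.00978, limma), which is under 1.5-fold, and by 0.06 in intercaruncular tissue (adjusted p = 0.726, limma).

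SLC7A9 pairs with the heavy chain SLC3A1 to take up cystine and basic amino acids. Its probe missed the brightness filter by 1 sample, since it passed in 21 of the 22 samples required, and the following values come from the fit of all 21475 probes. It was well above background in all 12 pregnant cows in either tissue and in 3 of 10 cyclic cows in either tissue. It was read because of this detection in pregnant cows, so its difference between the states is not independent of how it was picked. The median background-subtracted caruncular signal was 45.6 in cyclic and 588 in pregnant cows, and the intercaruncular one was 47.8 in cyclic and 225 in pregnant cows. In caruncular tissue SLC7A9 ran from -2.97 to -1.97 (median -2.39) in cyclic cows and from -1.50 to 1.79 (median 1.18) in pregnant cows, with no overlap. The difference was 3.11 (8.62-fold, SE 0.35, adjusted p = 2.73e-06, limma). In intercaruncular tissue it ran from -2.24 to -1.69 (median -1.90) and from -1.70 to 0.84 (median -0.24), a difference of 1.48 (2.78-fold, SE 0.31, adjusted p = 0.00292, limma), with cows Pregnant_9246 and Pregnant_9790, both at -1.70, just inside the cyclic range. Since most cyclic samples were not above background, the size of either fold rests on dim signals. With normexp background correction the changes were 2.34 and 0.96, and without cows Non-Pregnant_9786 and Pregnant_9790 they were 3.23 and 1.56. Its heavy chain SLC3A1 differed by -0.11 in caruncular and -0.13 in intercaruncular tissue (adjusted p = 0.356 and 0.411, limma).

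The 5 tested sodium-coupled neutral amino acid carriers (SLC38) moved in both directions. SLC38A3, a glutamine carrier, was 1.57-fold lower in caruncular tissue (-0.65, SE 0.22, adjusted p = 0.0338, limma) and 1.77-fold lower in intercaruncular tissue (-0.83, SE 0.18, adjusted p = 0.00324, limma). Its intercaruncular values ran from 0.53 to 1.46 (median 1.04) in cyclic cows and from -0.84 to 0.87 (median 0.26) in pregnant cows. SLC38A4, which carries neutral and cationic amino acids, was 1.65-fold lower in intercaruncular tissue (-0.72, SE 0.21, adjusted p = 0.0168, limma) and differed by -0.33 in caruncular tissue (adjusted p = 0.229, limma). SLC38A6 was 1.6-fold higher in caruncular tissue (0.67, SE 0.10, adjusted p = 4.27e-05, limma), where cyclic cows ran from -0.36 to 0.16 and pregnant cows from 0.05 to 0.96. Its intercaruncular change of 0.42 (adjusted p = 0.00392, limma) was under 1.5-fold.

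Of the 3 tested proton-coupled carriers SLC36A2, which takes up glycine and proline, was 2.52-fold higher in caruncular tissue of pregnant cows (1.34, SE 0.40, adjusted p = 0.0168, limma). The cows varied widely: pregnant cows ran from -2.12 to 1.67 (median 0.36) and cyclic cows from -2.55 to 0.17 (median -1.06). In intercaruncular tissue the change was 0.20, at an adjusted p of 0.568 (limma). Neither of the 2 SLC43 genes tested was called, and the one with the smaller p in caruncular tissue, the branched-chain amino acid facilitator SLC43A1, differed by -0.24 (adjusted p = 0.115, limma).

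Of 7 tested monocarboxylate family genes 1 rose and 3 fell in caruncular tissue, and 1 fell in intercaruncular tissue. That is 57.1% and 14.3% of them, beside 9.98% and 7.24% of all probes, and the latter share is a single gene. SLC16A1, a proton-coupled carrier of lactate and pyruvate, ran in caruncular tissue from -1.23 to 0.36 (median -0.41) in cyclic cows and from -0.52 to 1.66 (median 0.40) in pregnant cows. It was 2.1-fold higher (1.07, SE 0.25, adjusted p = 0.00321, limma), and in intercaruncular tissue it was 0.66 higher at an adjusted p of 0.0895 (limma). SLC16A9, described as a carnitine carrier, was 1.59-fold lower and SLC16A14 1.52-fold lower in caruncular tissue (-0.67 and -0.61, SE 0.22 and 0.15, adjusted p = 0.0269 and 0.00566, limma). Without cow Non-Pregnant_9786 the change of SLC16A9 was -0.58, just under 1.5-fold.

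The slide touched these counts. With the slide as a random block 8 genes were called in caruncular tissue (6 higher, 2 lower) and 8 in intercaruncular tissue (3 higher, 5 lower), of which 7 in each tissue were also called without it. Caruncular SLC1A1, SLC7A5, SLC7A8, SLC16A9, SLC38A3 and SLC36A2 then had adjusted p of 0.0630, 0.0796, 0.157, 0.0721, 0.0831 and 0.0568, and the fall of SLC16A14 was under 1.5-fold. Intercaruncular SLC5A1, SLC7A5, SLC7A11 and SLC38A4 had adjusted p of 0.0529, 0.422, 0.135 and 0.0930 (limma). A fit with the slide as a fixed block called no gene. Samples with a repeat array were placed on the slide of their first array in both slide fits. The fixed block therefore compared states only within slides 7 and 2. Repeat caruncular arrays of cows Pregnant_926 and Non-Pregnant_9960 also shared slide 10 with cow Pregnant_9790. Without cow Pregnant_9790 the intercaruncular falls of SLC7A5 (adjusted p = 0.0537, limma) and SLC2A4 (-0.56, under 1.5-fold) were not called. The intercaruncular fall of SLC16A14 (-0.63), the caruncular fall of SLC7A11 (-0.85) and the caruncular rise of SLC5A1 (0.75) were called instead. Within slide 7 the mean of 3 pregnant cows minus the 1 cyclic cow in caruncular tissue was 1.79 for SLC15A3, 0.81 for SLC2A1, 0.94 for SLC6A6, 1.01 for SLC16A1, -1.13 for SLC2A3, -0.05 for SLC1A1 and 0.18 for SLC7A8. Within slide 2 in intercaruncular tissue it was 1.45 for SLC15A3, 1.75 for SLC2A1, 1.82 for SLC5A1, 1.21 for SLC6A6, -1.65 for SLC2A3 and -0.76 for SLC38A3. Slides 7 and 2 held the same cows, with 1 cyclic cow for both, so the values of the tissues are not independent. The other named caruncular falls were -1.38 for SLC38A3, -0.82 for SLC16A9, -0.55 for SLC16A14 and -0.26 for SLC7A5 within slide 7, so that SLC1A1 stood near 0 and SLC7A8 above it there.

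Markers of other cell types were read beside these changes. Of 7 smooth muscle genes 5 fell in either tissue, with a median change of -0.92 in caruncular and -1.04 in intercaruncular tissue, and the list's median value in a sample ran from -0.50 to 1.06 in caruncular cyclic and from -1.92 to 0.48 in caruncular pregnant cows. In intercaruncular tissue it ran from -0.74 to 1.13 and from -1.87 to 0.11. Of 6 endothelial genes 2 fell in either tissue, and of 11 leukocyte genes 2 rose in caruncular and 1 in intercaruncular tissue. Of all probes 9.98% and 7.24% were called, 5.77% and 3.99% as higher, so that few leukocyte genes stand behind these counts. The median change of the leukocyte list was 0.34 in caruncular and 0.21 in intercaruncular tissue, where that of all probes was -0.043 and -0.015. Of 6 epithelial genes, 2 rose and 2 fell in caruncular tissue and 2 rose and 1 fell in intercaruncular tissue. Among 9 stromal genes 1 rose and 1 fell in caruncular tissue (median -0.002). In intercaruncular tissue 3 stromal genes fell and none rose (median -0.28). As lower, 4.21% of all probes were called in caruncular and 3.25% in intercaruncular tissue. The part of these cell types in the changes of the transporters was not tested.

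No member was called for a pregnancy change that differed between the tissues, and of all probes 0.0204% were. By unadjusted p under 0.05 there were 7 of the 54 members, where 7.37% of all probes reached it, and the 3 with the smallest p were SLC6A4, SLC16A11 and SLC36A2. SLC6A4, the serotonin carrier, changed by 0.18 in caruncular and -0.29 in intercaruncular tissue, a difference of 0.47 at an adjusted p of 0.239 (limma). A replicate block for the cow, taken as random because both tissues came from the same cows, led to a call of SLC6A4 (adjusted p = 0.0111, limma). For SLC16A11 the caruncular change was 0.64 below the intercaruncular change (-0.64, adjusted p = 0.503, limma) and for SLC36A2 it was 1.14 above (adjusted p = 0.549, limma). The genes called in a single tissue were therefore not shown to respond differently in the other.

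Embryo size was compared among the 12 pregnant cows. In intercaruncular endometrium 6 transporter genes differed between cows with large and cows with small embryos: SLC2A1, SLC5A1, SLC6A6, SLC16A1 and SLC36A2 were higher and 1 gene was lower with a large embryo. The 6 genes were 11.1% of the 54 genes, where 3.68% of all probes were called (1.57% higher, 2.12% lower). In caruncular endometrium no member and no probe was called (0% of all probes), and 5 members (9.26%) had an unadjusted p under 0.05, as did 6.92% of all probes. The size of an embryo was measured at slaughter, so it does not say which differed first.

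The intercaruncular values of SLC2A1 were -0.84, -0.70, -0.53, -0.39 and -0.32 in the 5 cows with small embryos. In the 7 cows with large embryos they ran from -0.22 to 1.27 with a median of 0.58, and the lowest was that of cow Pregnant_9790. The groups did not overlap, and SLC2A1 was 2.22-fold higher with a large embryo (1.15, SE 0.22, adjusted p = 0.0239, limma). In caruncular tissue the groups overlapped and the difference was 0.44 (SE 0.38, adjusted p = 0.873, limma).

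SLC5A1 was -0.68, -0.45, -0.20, -0.18 and -0.16 with small embryos and ran from -0.26 to 0.91 (median 0.62) with large embryos, 1.81-fold higher (0.86, SE 0.19, adjusted p = 0.0351, limma). All large-embryo cows but cow Pregnant_9790 lay above all small-embryo cows. SLC6A6 was -0.64, -0.50, -0.40, -0.35 and -0.20 with small embryos and ran from -0.17 to 0.88 (median 0.25) with large embryos, 1.69-fold higher and without overlap (0.76, SE 0.17, adjusted p = 0.0359, limma). SLC16A1 was -1.39, -1.25, -1.22, -0.65 and -0.31 with small embryos and ran from -0.35 to 1.07 (median -0.05) with large embryos, 2.27-fold higher (1.19, SE 0.27, adjusted p = 0.0406, limma). SLC36A2 was -0.67, -0.64, -0.39, -0.22 and -0.04 with small embryos and ran from -0.16 to 0.63 (median 0.13) with large embryos, 1.55-fold higher (0.63, SE 0.16, adjusted p = 0.0466, limma).

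**Figure D3:**
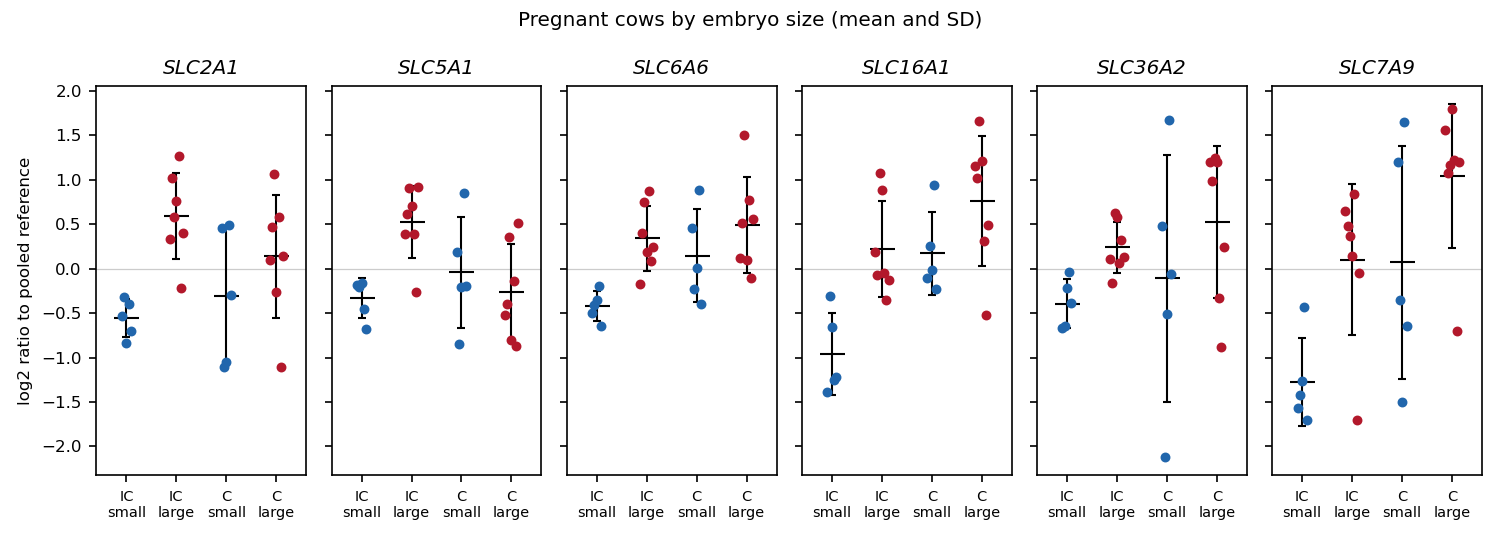
Values of 6 transporters in the 12 pregnant cows as log2 ratio to the pooled reference (vertical axis), by tissue (IC intercaruncular, C caruncular) and embryo size; points are samples, lines are means and bars SDs. The intercaruncular large-embryo cows lie above the small-embryo cows in SLC2A1 (lowest large value -0.22, highest small value -0.32), and in SLC7A9 a single large-embryo cow, Pregnant_9790, lies at -1.70.

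Groups without overlap were seen for 3 of the 54 members, and for 3.35% of all probes. SLC7A9, below the brightness filter, was -1.70, -1.56, -1.42, -1.27 and -0.44 with small embryos in intercaruncular tissue, and with large embryos it was -1.70 in cow Pregnant_9790 and -0.05 to 0.84 in the other 6 cows. Its difference of 1.38 had an adjusted p of 0.0969 (limma, all probes), and without cow Pregnant_9790 it was 1.68 (adjusted p = 0.00456, limma).

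The embryo size calls were sensitive to single cows. Without cow Pregnant_9790 there were 12 called members, which included all 6, and without large-embryo cow Pregnant_3805 or small-embryo cow Pregnant_3807, Pregnant_9246 or Pregnant_932 there were 0. There was 1 without large-embryo cow Pregnant_1943, 2 without large-embryo cow Pregnant_3803 or Pregnant_3957, and 3 without small-embryo cow Pregnant_977. Over the 12 fits that each left out 1 cow the difference ran from 1.04 to 1.28 for SLC2A1, from 0.77 to 0.99 for SLC5A1, from 0.67 to 0.84 for SLC6A6, from 1.04 to 1.35 for SLC16A1 and from 0.56 to 0.72 for SLC36A2. Of these 12 fits SLC2A1 lost its call in 4, SLC6A6 in 8, SLC5A1 and SLC16A1 in 9 and SLC36A2 in 10. In a fit with a fixed slide block SLC2A1, SLC5A1 and SLC16A1 remained called, and SLC6A6 and SLC36A2 had adjusted p of 0.0610 and 0.0839 (limma). Over the tested probes of the whole array, intercaruncular small-embryo cows Pregnant_932, Pregnant_9246, Pregnant_3807 and Pregnant_977 were closer to the mean of cyclic cows than to that of their own group. Their correlations with the cyclic mean were 0.58, 0.52, 0.57 and 0.58, and the members alone were not compared in this way. In the same comparison 1 of 9 stromal genes (median -0.34) and 1 of 6 endothelial genes (median -0.39) were lower with a large embryo. No smooth muscle gene was called (median -0.55). The stromal and endothelial counts are single genes, where 2.12% of all probes were called lower. The median change of all probes was -0.01. The part of these cell types in the transporter differences was not tested. In caruncular tissue the 3 members with the smallest p were SLC2A3 (-0.68), the neutral amino acid carrier SLC1A4 (-0.54) and SLC15A2 (-1.53), with adjusted p of 0.603, 0.691 and 0.691 (limma). The further probe that only the current reference table names SLC15A2 differed there by -0.93 (adjusted p = 0.777, limma).

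The transporter whose pattern over the 44 samples was most like that of SLC2A1 was SLC5A1, at a Spearman correlation of 0.80, followed by SLC6A6 (0.77), SLC15A3 (0.75), SLC16A1 (0.64) and SLC38A6 (0.61). Within caruncular samples the same correlations were 0.76, 0.82, 0.72, 0.74 and 0.66, and within intercaruncular samples 0.87, 0.73, 0.80, 0.63 and 0.62. These are descriptions over samples that share a reference pool, slides and the pregnancy groups.

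Fertility was compared among the same 12 cows, with 6 labelled fertile and 6 sub-fertile. No member was called in either tissue by limma. Among all probes 0% were called in caruncular and 0.0476% in intercaruncular tissue (0.00681% higher and 0.0408% lower in fertile cows). By unadjusted p under 0.05 there were 5 members (9.26%) in caruncular and 7 (13.0%) in intercaruncular tissue, where 13.8% and 13.6% of all probes reached it. In intercaruncular tissue the 3 with the smallest p were lower in fertile cows and did not overlap between the groups, where 1.42% of all probes did not overlap. SLC16A5, a monocarboxylate family carrier, ran from -0.44 to 0.13 in fertile and from 0.14 to 0.53 in sub-fertile cows (difference -0.49, adjusted p = 0.143, limma). SLC5A11, a sodium-coupled inositol carrier, ran from -0.69 to 0.39 and from 0.54 to 1.72 (difference -0.88, adjusted p = 0.155, limma). SLC6A8 ran from -0.43 to 0.30 and from 0.32 to 0.57 (difference -0.46, adjusted p = 0.159, limma). In caruncular tissue the smallest p were those of SLC6A8 (-0.32), the renal-type glucose carrier SLC5A2 (-0.22) and SLC7A11 (-0.83), with adjusted p of 0.278, 0.278 and 0.307 (limma). The slides with fertility-labelled cows held mostly 1 label each: both slides with 4 fertile cows held no sub-fertile cow, and slides 2 and 7 held 3 sub-fertile cows and no fertile cow.

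Between the tissues of pregnant cows 5 transporter genes were higher and 6 lower in caruncular than in intercaruncular endometrium, 20.4% of the 54 genes where 17% of all probes were called (9.06% higher, 7.92% lower). In cyclic cows 3 were higher and 4 lower, 13.0% of the genes where 12.2% of all probes were called (7.04% higher, 5.19% lower). No member's tissues were free of overlap in pregnant or in cyclic cows, where 1.25% and 0.932% of all probes were. The share in cyclic cows was thus near that of all probes. Higher in caruncular tissue of both states were SLC38A4, SLC16A14 and the sugar carrier SLC2A10, and lower in both were SLC38A3 and the sugar carrier SLC2A12.

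**Figure D4:**
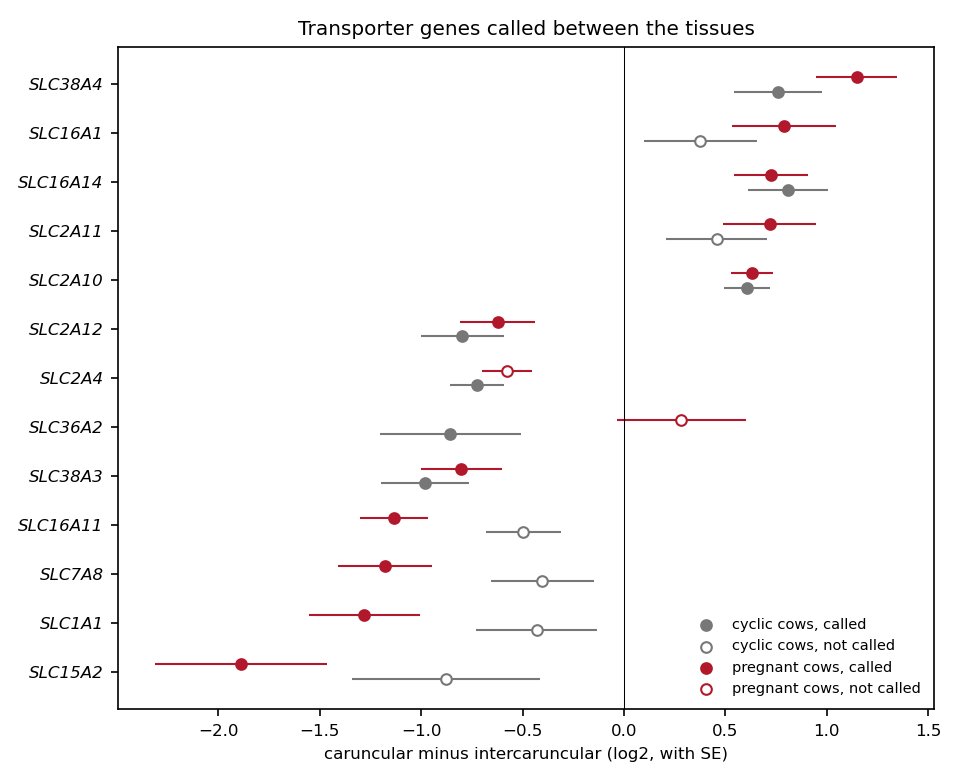
Difference between the tissues, as caruncular minus intercaruncular on the log2 scale (horizontal axis), for each transporter called in pregnant or cyclic cows; points are differences, bars are SEs and filled points passed the test. SLC15A2 lies farthest to the left, at -1.89 in pregnant cows, and SLC38A4 farthest to the right, at 1.15.

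The largest called difference was that of SLC15A2, which takes up small peptides. In pregnant cows it ran from -4.09 to 0.05 (median -1.97) in caruncular and from -1.07 to 1.40 (median -0.23) in intercaruncular tissue, and it was lower in caruncular tissue in all 12 cows (-1.89, 3.7-fold, SE 0.42, adjusted p = 0.000335, limma). The current reference table gives this probe another name. A further tested probe, which only that table names SLC15A2, was also lower in caruncular tissue of pregnant cows (-1.39, adjusted p = 0.00123, limma), and in cyclic cows it differed by -0.83 (adjusted p = 0.0859, limma). It is 1 of 13 probes that the table, but not the array, places in these families and that are no members here. The amino acid carriers SLC1A1 (-1.28, 2.43-fold), SLC7A8 (-1.18, 2.26-fold) and SLC38A3 (-0.80, 1.74-fold) and the monocarboxylate family member SLC16A11 (-1.14, 2.2-fold) were also lower in caruncular tissue of pregnant cows, with adjusted p of 0.000186, 6.82e-05, 0.00102 and 8.02e-07 (limma). SLC7A8, SLC38A3 and SLC16A11 were lower in all 12 cows and SLC1A1 in 11. In cyclic cows the differences of SLC15A2, SLC1A1, SLC7A8 and SLC16A11 were -0.88, -0.43, -0.40 and -0.50 and none was called.

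SLC38A4 was higher in caruncular tissue in 11 of 12 pregnant cows (1.15, 2.21-fold, SE 0.20, adjusted p = 1.03e-05, limma) and in 9 of 10 cyclic cows (0.76, 1.69-fold, SE 0.22, adjusted p = 0.00562, limma). SLC2A10 was higher in all 12 pregnant cows (0.63, 1.55-fold, adjusted p = 5.12e-06, limma) and all 10 cyclic cows (0.61, 1.52-fold, adjusted p = 7.45e-05, limma), as was SLC16A14 (0.72 and 0.81, adjusted p = 0.00115 and 0.00149, limma). In pregnant cows alone SLC16A1 (0.79, adjusted p = 0.0105, 11 of 12 cows) and the sugar carrier SLC2A11 (0.72, adjusted p = 0.00911, all 12 cows) were called higher (limma). The SLC2A11 probe passed the brightness filter in 23 of the 44 samples, with median signals of 121 and 130.5 in caruncular tissue of cyclic and pregnant cows and of 57.8 and 69.9, under the filter's 80, in intercaruncular tissue. It was therefore tested through the tissue in which it was brighter. With normexp background correction SLC2A10 and SLC2A11 were under 1.5-fold. In cyclic cows SLC38A3 (-0.98), SLC2A12 (-0.80) and SLC2A4 (-0.73) were lower in caruncular tissue with adjusted p of 0.000507, 0.00209 and 5.65e-05 (limma), SLC38A3 and SLC2A4 in all 10 cows. SLC36A2 was lower there in 8 of 10 cyclic cows (-0.86, adjusted p = 0.0495, limma) and was not called without cow Non-Pregnant_9786 (-0.81, adjusted p = 0.0578, limma).

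Tissue and scan day cannot be told apart except in cows Pregnant_9790 and Non-Pregnant_9786, which had both tissues on 1 slide. In cow Pregnant_9790, the difference within the slide was -1.46 for SLC15A2, -1.48 for SLC1A1, -0.06 for SLC7A8, -0.96 for SLC16A11, -0.84 for SLC38A3 and 1.28 for SLC38A4, and for SLC16A1 it was -0.17, opposite to the other 11 cows. In cow Non-Pregnant_9786 it was -1.74 for SLC38A3, -1.15 for SLC2A12, -0.28 for SLC2A4 and 1.41 for SLC38A4. In each of these cows the library that stood apart correlated better with the other tissue, whereas the other library correlated best with its own labelled group (0.67 for the caruncular one of cow Pregnant_9790 and 0.45 for the intercaruncular one of cow Non-Pregnant_9786). An exchange of the tissue labels of a cow would turn the signs of these within-slide values, and it was not tested. In pregnant cows 7 of 9 stromal genes were higher in caruncular tissue (median 0.91), and 4 of 6 epithelial genes were lower and 1 higher (median -0.75). Of all probes 9.06% were called higher and 7.92% lower there. In cyclic cows 3 of 9 stromal genes were higher and 1 of 6 epithelial genes, a single gene, was lower. Of all probes 7.04% were called higher and 5.19% lower in cyclic cows. Smooth muscle genes were called higher for 2 of 7 in pregnant cows and 1 of 7 in cyclic cows. The part of the cell types in the tissue differences was not tested.

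Genes that act beside these carriers were read from lists on glycolysis, the polyol pathway, amino acid sensing and partners of the transporters. Of 19 tested genes of glycolysis and lactate, 2 rose with pregnancy in either tissue. They were PFKFB3 (0.63 in caruncular, 0.81 in intercaruncular tissue) and PFKFB4 (0.61 and 0.65), enzymes that set the level of fructose 2,6-bisphosphate, an activator of glycolysis. None fell, and the count is near the share of all probes called (9.98% and 7.24%). Of 4 polyol pathway genes SORD, which oxidises sorbitol to fructose, rose in both tissues (0.96 and 0.65) and AKR1B1, which reduces glucose to sorbitol, fell in caruncular tissue (-0.74). Of 16 amino acid sensing genes the leucine sensor SESN2 rose (1.03) and the Rag GTPase RRAGB fell (-0.71) in caruncular tissue, and RHEB, an activator of mTORC1, rose in intercaruncular tissue (0.60). The amino acid sensing counts too are near the shares of all probes, whereas the polyol counts lie above them and rest on only 4 genes. Among 11 partners and regulators of the transporters the scaffold PDZK1, its partner PDZK1IP1 and the kinase SGK2 were lower in caruncular than in intercaruncular tissue of pregnant cows (-1.59, -1.15 and -1.30) and of cyclic cows (-0.98, -1.12 and -1.14), where 17% and 12.2% of all probes were called. TXNIP, an arrestin-like inhibitor of glucose uptake, was higher in caruncular tissue of pregnant cows (0.67). With pregnancy 1 of the 11 fell in each tissue and none rose.

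The brightness filter left out 30 of the 84 genes. By family, 7 of 11 SLC5 genes, 7 of 15 SLC6 genes, 6 of 13 SLC16 genes, 3 of 7 SLC1 genes, 2 of 10 SLC2 genes, 2 of 9 SLC7 genes and 1 each of 4 SLC36, 6 SLC38 and 3 SLC43 genes were not tested, and every SLC3 and SLC15 gene on the array was. Those left out were SLC1A2, SLC1A6, SLC1A7, SLC2A2, SLC2A5, SLC5A4, SLC5A5, SLC5A6, SLC5A7, SLC5A8, SLC5A9, SLC5A12, SLC6A2, SLC6A5, SLC6A7, SLC6A11, SLC6A12, SLC6A13, SLC6A20, SLC7A9, SLC7A14, SLC16A3, SLC16A4, SLC16A6, SLC16A7, SLC16A8, SLC16A10, SLC36A3, SLC38A1 and SLC43A3.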

How the data were processed

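Each of 44 RNA samples (22 cows, 2 tissues) was hybridised with a pooled reference to a 2-colour Agilent array (48 arrays, 4 of them repeats). Per the file headers the deposited scanner files came from Feature Extraction 9.5.3.1, and the authors' background-subtracted and dye-normalised red and green intensity, with the log10 ratio of red (sample) over green (pool), was used as deposited. Spots flagged as non-uniform or as population outliers were left out of the ratios, and the spots of a probe were averaged. The log10 ratio was turned into log2, centred on the median of each array, and repeat arrays were averaged. The deposited log2 matrix (17855 probes matched, 73 of them members) served as an alternative. A probe was tested when, in at least 22 of the 44 samples, it was well above background and its background-subtracted sample signal was at least 80. Precision is limited by the number of cows, since intensities give no counts.

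Pregnancy was tested within each tissue, embryo size and fertility label within the 12 pregnant cows, and tissue and interaction over all samples, with limma 3.58.1 in R 4.3.3 (lmFit, eBayes, two-sided, Benjamini-Hochberg). The tissue and interaction fits did not pair the tissues of a cow, except where a cow block is named. Named were members called for pregnancy in either tissue, for embryo size, fertility or interaction (otherwise the 3 with the smallest p), the 10 largest tissue differences per state, and the smallest caruncular p of a family with none called. A gene was read from its brightest tested probe. Members and gene lists were chosen with earlier results of these data known. Cow numbers pair the tissues: deviations of the 2 samples of a cow from their group means correlated at 0.11 to 0.87 (median 0.61, 22 of 22 over 0.1). The current reference table (RefSeq) named 65 of the 88 probes, 62 of them by the same symbol; SLC6A19, SLC7A3 and SLC15A2 now have another name there and 23 were unmatched. The limma step for pregnancy and embryo size was tested on simulated data with independent noise. No slide, scan day or cow effect was simulated, and the tissue, interaction and fertility fits were not tested in this way. Alternatives were background correction, centring, filter, deposited matrix, single arrays, slide and scan day as blocks, the methods' t-test, cow as a block and leaving out cows; leaving out cows Non-Pregnant_9786 and Pregnant_9790 was chosen after seeing the data. Some genes that enter the counts are not reported by name here.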

Additional observations from a re-analysis of the deposited data

Results flagged for a closer look

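SLC7A9 lies outside the tested probes. It was flagged because it was above background on nearly all arrays of pregnant cows and on a minority of those of cyclic cows. Its difference between the states is therefore not independent of that choice. Without the brightness filter it was higher in pregnant than in cyclic cows by a log2 difference of 3.11 (caruncular) and 1.48 (intercaruncular), and it was well above background in 3 of 10 cyclic and 12 of 12 pregnant cows in either tissue. Its change was 3.01 and 1.49 with the slide as a random block (adjusted p = 6.14e-05 and 0.0194, limma). A fixed slide block gave 2.62 and 1.85 (adjusted p = 0.304 and 0.289, limma).

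Single samples lay far from the rest of their group in 5 of 80 groups of 5 to 10 samples examined by Dixon's ratio, where about 1 in 20 groups is picked by chance. Cyclic groups of genes named in both the pregnancy and the tissue comparison entered the 80 more than once. In caruncular tissue of cyclic cows these were SLC3A2 in cow Non-Pregnant_9786 (-0.95, the next lowest -0.29) and SLC16A9 in cow Non-Pregnant_3811 (-1.25, the next lowest -0.04). In intercaruncular tissue they were SLC16A1 in cow Non-Pregnant_2952 (0.23, the next highest -0.61) and SLC5A11 in fertile cow Pregnant_3956 (-0.69, the next lowest -0.00). SLC1A4 in caruncular tissue of large-embryo cow Pregnant_3803 was 0.38, the next highest being -0.52.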

How the results depend on the processing

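The count of members called in caruncular pregnancy was 14, and it was 8 with the slide as a random block and 0 with it as a fixed block. In intercaruncular tissue it was 11, and it was 7 with normexp and loess and 0 with the fixed block. Leaving out cow Non-Pregnant_9786 or Pregnant_9790 gave 16 to 20 in caruncular and 10 to 11 in intercaruncular tissue. For embryo size in intercaruncular tissue it was 6, and it was 2 without the filter, where more probes share the adjustment, 12 with scan day as a block, which drops cow Pregnant_9790 as the only pregnant intercaruncular sample of its day, and 0 to 12 when single cows were left out. For the interaction it was 0, and with the cow as a fixed or random replicate block, or without cows Non-Pregnant_9786 and Pregnant_9790 (also without Non-Pregnant_9786 alone; 0 to 1), it was 1. With a random replicate block for the cow over all samples the pregnancy counts were 17 and 12, and between tissues either block gave 9 in cyclic and 11 in pregnant cows, where 7 and 11 had been called; the pairing thus changed no other count by over 1.5 times.

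With the slide as a fixed block the direction turned for SLC7A8 in caruncular tissue (0.18) and in intercaruncular tissue for SLC7A5 (0.54), SLC7A8 (-0.46), SLC36A2 (-0.59), SLC16A14 (0.15), SLC16A9 (0.10) and SLC3A2 (-0.024). Of these only the caruncular SLC7A8 and the intercaruncular SLC7A5 had been called. SLC3A2 in intercaruncular tissue was -0.024 without cow Non-Pregnant_9786, 0.050 without cow Pregnant_9790 and -0.037 without cows Non-Pregnant_9786 and Pregnant_9790. SLC16A1 between the tissues of pregnant cows was -0.17 in the cow with both tissues on 1 slide. The cause was not tested, other than that fixed-block fits rest on 4 samples for each tissue, from the same 4 cows. Of 1110 values of single genes over all alternatives, 983 kept direction and side of the threshold, 108 lost the call, 9 gained it and 10 turned. Dim probes limit SLC6A6, SLC7A9 and SLC2A11.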

Other observations

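Other members below the brightness filter were read from the fit of all probes when they were well above background in nearly every sample of some tissue and state. Their differences between pregnant and cyclic cows are therefore not independent of how they were picked. SLC38A1, a glutamine carrier, was well above background in 3 of 10 caruncular and 0 of 10 intercaruncular samples of cyclic cows, and in 11 and 9 of the 12 samples of pregnant cows. In the fit of all probes its caruncular change was 0.89 (adjusted p = 0.0566, limma), and without cows Non-Pregnant_9786 and Pregnant_9790 it was called (0.90, adjusted p = 0.0344, limma). SLC43A3 differed there by -0.45 (adjusted p = 0.0738, limma), and without these cows by -0.61 (adjusted p = 0.00830, limma), when it was called. SLC5A9, a sodium-coupled sugar carrier, was well above background in 5 of 10 cyclic and 11 of 12 pregnant cows in intercaruncular tissue, where it was 0.57 higher (1.49-fold, adjusted p = 0.000815, limma).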
